A study of Mus musculus with 4 samples.

Results

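The unfolded protein response and the integrated stress response were followed through 30 genes, taken by exact symbol from the 32245 gene symbols of the count tables. All 30 symbols were found. They were kept in 4 sets by role: 8 genes on the side of the transcription factor ATF4, 14 chaperones and folding enzymes of the endoplasmic reticulum (the chaperone side), 3 sensors with the factor Xbp1, and 4 genes of ER-associated degradation. The choice used no threshold on these counts.

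The data were single-cell RNA counts from mouse, made with a 10x droplet kit that counts transcripts from their 3' ends and tags each molecule with a unique identifier (UMI). There were 4 libraries, 1 for each treatment: ctrl, 2DG (2-deoxy-D-glucose, a glucose analogue), aPDL1, and 2DG_aPDL1, called the combination here. The title of the series speaks of glycans, ovarian tumours and immune checkpoint blockade, and its design text of young and aged animals, but the labels give no strain, age, tumour, dose or time for any library, nor how many animals each came from. No transgene or deletion is named for any group.

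Proteins that enter the endoplasmic reticulum are folded there with the help of chaperones and of N-linked glycans, and misfolded proteins set off the unfolded protein response. It has 3 arms: the kinase and ribonuclease IRE1 (gene Ern1) splices Xbp1 mRNA, the kinase PERK (Eif2ak3) phosphorylates the initiation factor eIF2 alpha and so favours translation of ATF4, and the factor ATF6 is cleaved in the Golgi and then acts in the nucleus. The integrated stress response is the eIF2 alpha and ATF4 branch, which kinases for amino acid lack, double-stranded RNA and heme lack also feed. 2-deoxy-D-glucose blocks early glycolysis and, as a mannose analogue, can be built into N-glycan precursors, so it is a classical inducer of this response in cultured cells. Splicing of Xbp1, translation of Atf4 and cleavage of ATF6 are not read by counts of 3' ends.

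Promoter letters that the ATF6, XBP1 and ATF4 proteins are known to bind were looked up for the same genes in RefSeq's promoter windows of GRCm38.p6. Each window runs from 250 bases before to 50 after the gene's start. A window was given for 27 of the 30 members (not for Atf6, Manf and Hyou1). The ER stress response element was searched as CCAAT and CCACG with 9 bases of any kind between them, on both strands. It stood in 39 of 32851 promoters (0.119%), and 8 of these were members: 7 of 12 chaperone-side promoters, 1 of 4 of the degradation set, and none of 8 on the ATF4 side. The shorter second element, ATTGG and CCACG with 1 base between them, stood in 12 promoters (0.0365%), among them Herpud1 and Dnajb11. The ATF4-type element TGATGNAA is short and stood in 1304 promoters (3.97%), among them 3 of 8 on the ATF4 side (Chac1, Trib3 and Asns), and Herpud1. A match describes letters in a window and is neither a bound site nor a cause of any value below. The sites below are a selection from genes described in the text, of which Chac1 had too few UMIs for a ratio in mononuclear phagocytes. The ER stress response elements of Hsp90b1, Canx, Pdia6 and Dnajc3 are not shown. Matched letters are in capitals and each site is read along the gene's own strand, so that an element on the other strand appears as its reverse complement.
Hspa5, ER stress response element, chr2:34772020-34772048 (+): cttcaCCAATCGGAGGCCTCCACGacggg
Calr, ER stress response element on the other strand, chr8:84847070-84847098 (-): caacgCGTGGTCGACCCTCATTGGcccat
Creld2, ER stress response element on the other strand, chr15:88819515-88819543 (+): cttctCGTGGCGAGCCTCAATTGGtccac
Syvn1, ER stress response element, chr19:6046527-6046555 (+): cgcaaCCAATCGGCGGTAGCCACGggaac
Dnajb11, second ER stress element, chr16:22857847-22857867 (+): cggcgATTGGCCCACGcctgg
Herpud1, second ER stress element, chr8:94386372-94386392 (+): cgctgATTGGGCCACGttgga
Herpud1, ATF4-type element on the other strand, chr8:94386312-94386329 (+): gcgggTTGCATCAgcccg
Chac1, ATF4-type element on the other strand, chr2:119351044-119351061 (+): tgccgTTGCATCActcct
Trib3, ATF4-type element on the other strand, chr2:152344034-152344051 (-): caggtTTACATCAgccgg
Asns, ATF4-type element, chr6:7693220-7693237 (-): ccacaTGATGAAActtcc

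Herpud1 was the 1 member whose window held both an ER stress element and an ATF4-type element, and it also carries one of the results. Its 250 bases upstream of the RefSeq start, with both elements in capitals, are shown for context.
Herpud1 upstream, chr8:94386179-94386428 (+): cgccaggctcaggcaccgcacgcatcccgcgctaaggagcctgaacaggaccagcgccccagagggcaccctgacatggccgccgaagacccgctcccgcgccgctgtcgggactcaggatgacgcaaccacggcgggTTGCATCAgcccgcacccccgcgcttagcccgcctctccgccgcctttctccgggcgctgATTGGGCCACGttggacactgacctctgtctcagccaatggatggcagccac

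After filters and the removal of likely doublets, 8389 ctrl, 7390 2DG, 8338 aPDL1 and 8554 combination cells were left, and the libraries held 61859753 to 73885214 UMIs. Cells were put into classes by marker genes, so that a class name stands for cells resembling that type by marker counts only. Of 7 stromal markers of the labelled tissue, lymph node, Ccl19, Ccl21a, Madcam1 and Glycam1 had 0 to 3 UMIs per library, Prox1 4 to 12 and Lyve1 20 to 82. The list summed to 111 CPM in ctrl and 49.8 to 66.5 in the others, nearly all of it Pdpn, and no gene of it was at 0 in every library. The ctrl library stood apart. It held 2857 neutrophils against 247 to 313 in the others and 410 T cells against 2610 to 2723, and of 30 Leiden clusters 9 drew more than 2 of 3 cells from 1 library. Without these clusters 1116 of 3144 mononuclear phagocytes and 702 of 2857 neutrophils were left in ctrl, against 2309 to 3154 mononuclear phagocytes and 164 to 268 neutrophils in the other libraries. Most called differences of members described below are therefore given with and without them where they rest on ctrl myeloid cells. For others a range over the settings tried is given, or all cells only. Between 74 and 81 barcodes per library were shared with another library. Median UMIs per cell in mononuclear phagocytes were 10874 in ctrl and 7035 to 7974 in the other 3.

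Each class was summed per library and expressed in CPM, counts per 1000000 of the summed UMIs of that class. Since each group is 1 library, the spread between animals is unknown and no test or p-value is given, and the 95% intervals are exact ones that cover counting error only. A member is called higher or lower when it is past 1.5-fold and its higher library holds 50 UMIs or more. 4 pairs were formed: 2DG over ctrl, the combination over aPDL1, aPDL1 over ctrl and, last, the combination over 2DG. They share libraries and are not independent. The C1q macrophage and Ly6c2 monocyte classes lie within the mononuclear phagocytes, and the CD8 and Foxp3-negative CD4 classes within the T cells. 8 classes held at least 100 cells in every library. Regulatory T, NK and B cells did not, with 79, 26 and 62 ctrl cells, and they are used for levels only.

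In mononuclear phagocytes most members stood within 1.5-fold of each other in every pair. Of 29 members with enough UMIs, 0 were higher and 5 lower with 2DG than in ctrl, where 11.7% of all genes were higher and 9.06% lower. The combination over aPDL1 gave 1 higher and 1 lower of 29, beside 4.6% and 7.95% of all genes. aPDL1 over ctrl gave 1 higher and 4 lower of 29, beside 13.8% and 9.29%. The combination over 2DG gave 2 higher and 1 lower of 28, beside 4.58% and 6.77%. In the combination's pairs these counts are near the background. With the trimmed mean (TMM) scaling of edgeR the combination's pairs gave 2 higher and 0 lower over aPDL1, and 4 higher and 0 lower over 2DG. That scaling moves every gene of the class by -0.14, 0.11, -0.16 and 0.09 on the log2 scale in the order of the pairs.

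**Figure D1:**
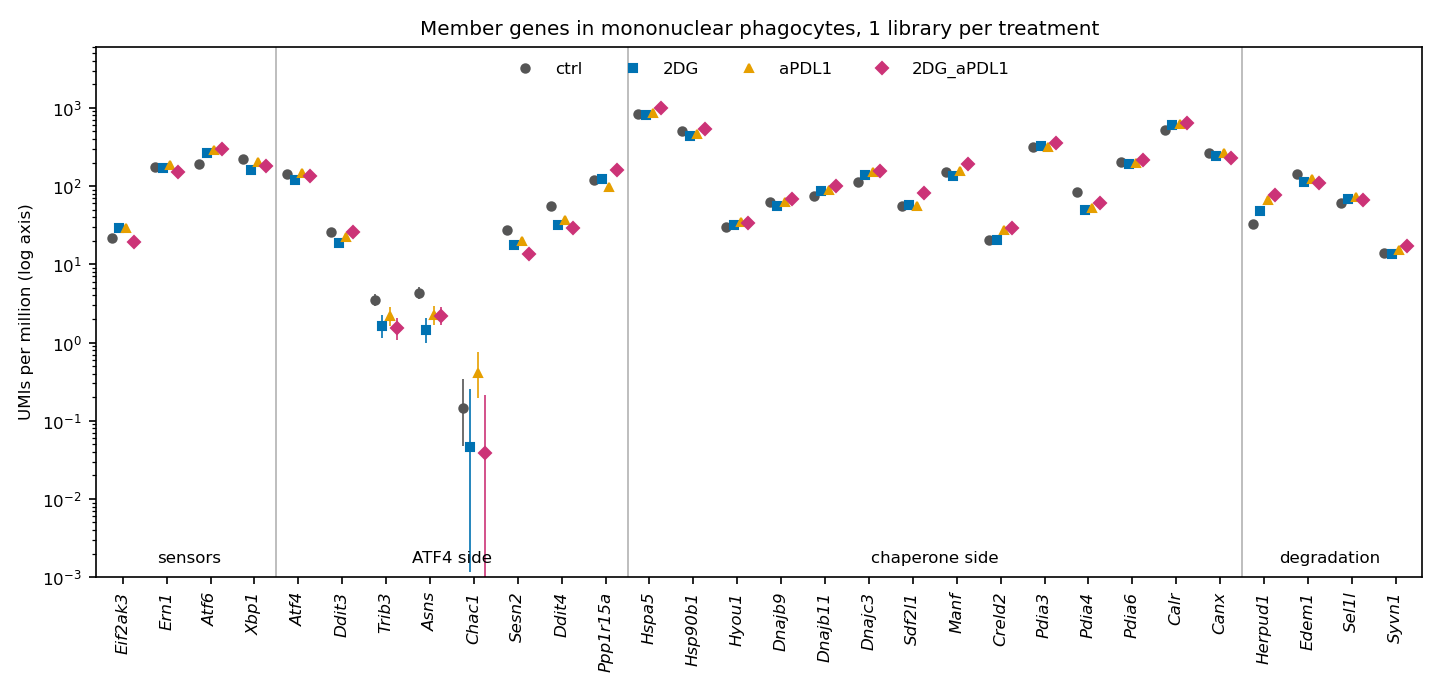
Level of the 30 members in mononuclear phagocytes, in CPM of the class on a log axis, with 1 point for each library and exact Poisson 95% intervals as bars. The 4 points of most members lie close together, while Trib3, Asns and Ddit4 are highest in ctrl and Herpud1 goes from 32.5 in ctrl to 77.1 CPM in the combination.

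The sensors differed from each other in their order of levels. PERK's gene Eif2ak3 (chr6:70844515-70905245, +) stood at 21.6 CPM in ctrl, 28.9 in 2DG, 28.9 in aPDL1 and 19.2 in the combination. It was thus lower in the combination than in either single treatment, by -0.59 on the log2 scale (-0.76 to -0.42) over each of them, and without the clusters mostly of 1 library by -0.63 and -0.62. Over the settings tried these ratios ranged from -0.63 to -0.49 over aPDL1 and from -0.66 to -0.48 over 2DG. In some settings they were thus short of 1.5-fold. Within single clusters the direction was less even, above 0 in 1 of 6 clusters over aPDL1 and in 2 of 7 over 2DG. Ern1 stood at 176, 171, 186 and 152 CPM in the order ctrl, 2DG, aPDL1 and combination, all within 1.5-fold. Atf6 stood at 193 CPM in ctrl and 267, 288 and 297 in the others, 0.47 (0.42 to 0.52) above ctrl with 2DG and 0.58 (0.53 to 0.63) with aPDL1, both short of 1.5-fold, and 0.32 and 0.46 without those clusters. Xbp1 stood at 219, 161, 206 and 179 CPM, lowest with 2DG, at -0.45 (-0.50 to -0.39) against ctrl but at -0.05 without those clusters.

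In Ly6c2 monocytes, the classical inflammatory monocytes, Atf6 and Eif2ak3 differed past 1.5-fold. Atf6 stood at 188 CPM in ctrl and 368, 355 and 380 in the others, that is 0.97 (0.89 to 1.05) above ctrl with 2DG and 0.92 (0.85 to 0.99) with aPDL1. Without the clusters mostly of 1 library, ctrl stood at 255 CPM and the ratios were 0.61 and 0.60. A level at least 1.5-fold below all other libraries in ctrl was found for 12.3% of all genes in this class. Eif2ak3 stood at 19.9, 32.8, 28.6 and 18.0 CPM there, higher in 2DG than in ctrl by 0.72 (0.46 to 0.98) and lower in the combination than in aPDL1 by -0.66 (-0.95 to -0.39), against 0.43, short of 1.5-fold, and -0.69 without those clusters. Dendritic markers of this class, with class II genes among them, also differed: the list of 7 genes summed to 1363 CPM in ctrl and 5110 to 6231 in the others, with no gene of the list at 0 in every library. Their part in the Atf6 values was not tested.

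The ATF4 side was lower outside ctrl in mononuclear phagocytes. Its median log2 ratio over 7 members was -0.63 for 2DG over ctrl and -0.47 for aPDL1 over ctrl, where all genes had medians of 0.11 and 0.10. For the combination it was -0.12 over aPDL1 and 0.28 over 2DG (6 members), beside -0.09 and -0.08. The direction against ctrl was not kept without the ctrl-rich clusters: the medians were then 0.16 for 2DG and 0.17 for aPDL1. Asns and Trib3 had fewer than 50 UMIs there, so these medians leave both out and are not over the same members. No member with 50 UMIs or more was then called lower than in ctrl in either pair (Asns, at -1.22 with 2DG, had fewer).

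Asns, the asparagine synthetase gene and a textbook ATF4 target, stood at 4.30, 1.43, 2.25 and 2.21 CPM in ctrl, 2DG, aPDL1 and the combination. It was -1.57 (-2.19 to -1.02) below ctrl with 2DG, -0.93 below it with aPDL1, and 0.62 (-0.03 to 1.31) above 2DG in the combination. Without the ctrl-rich clusters it rested on 41, 27, 47 and 52 UMIs, with ctrl still highest at 3.17 CPM, 2DG over ctrl at -1.22 and aPDL1 over ctrl at -0.53. Trib3, a pseudokinase that feeds back on ATF4, stood at 3.52, 1.62, 2.16 and 1.53 CPM, but without those clusters at 0.927, 1.25, 1.45 and 1.07 CPM from 12 to 31 UMIs, with ctrl then lowest. Ddit4, an inhibitor of mTORC1 that hypoxia and glucocorticoids also induce, stood at 56.2, 31.5, 36.7 and 29.0 CPM, and at 22.2, 26.8, 23.7 and 24.6 CPM without those clusters. The ctrl excess of Trib3 and Ddit4 was thus not seen in the cells outside them. A ctrl level at least 1.5-fold above all other libraries, which Asns, Trib3 and Ddit4 had with all cells, was found for 5.73% of all genes in the class. Sesn2, which encodes sestrin 2, a stress-induced brake on mTORC1, stood at 27.4, 17.6, 19.7 and 13.7 CPM and was -0.63 (-0.81 to -0.46) below ctrl with 2DG, against 0.16 without those clusters. Chac1, a glutathione-degrading enzyme, had 5, 1, 10 and 1 UMIs and gave no ratio.

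The transcription factors themselves moved less. Atf4 stood at 144, 121, 147 and 136 CPM, with -0.26 (-0.33 to -0.19) for 2DG over ctrl and 0.17 (0.10 to 0.24) for the combination over 2DG, which were 0.15 and 0.18 without those clusters. Ddit3, the gene of the pro-apoptotic factor CHOP, stood at 26.2, 18.8, 22.5 and 26.1 CPM. Its symbol has 2 gene identifiers, the second at 0 UMIs, and it overlaps Mars on the other strand, so its counts are less certain than the others. A list of 10 hypoxia genes without members moved beside the ATF4 side, at 2119 CPM in ctrl mononuclear phagocytes and 935 to 1129 in the others, with no gene at 0 in every library. Its part in these ratios was not tested.

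Ppp1r15a encodes GADD34, the phosphatase subunit that reverses eIF2 alpha phosphorylation. It was chosen after its values were seen. In mononuclear phagocytes it stood at 120 CPM in ctrl, 124 in 2DG, 97.9 in aPDL1 and 162 in the combination. The combination was the highest library, 0.73 (0.66 to 0.80) above aPDL1 and 0.39 (0.32 to 0.46) above 2DG, and 0.76 and 0.39 without the ctrl-rich clusters. Over aPDL1 it was above 0 in 9 of 9 clusters of these cells, from 0.25 to 1.37. Across the 8 classes, which overlap, the combination exceeded aPDL1 in 8, by 0.30 to 0.92 and past 1.5-fold in 6, and exceeded 2DG in 8, by 0.30 to 0.59 and past 1.5-fold in 1. In T cells the level was 114, 101, 85.9 and 135 CPM. In NK cells it was 89.3, 114, 120 and 254 CPM, with 26 cells behind the ctrl value. Ppp1r15a is also induced as an immediate early gene. A list of 11 such genes without members stood at 9629, 7949, 8477 and 12320 CPM in mononuclear phagocytes, at 2940, 2232, 2687 and 4017 in T cells and at 4152, 3669, 5240 and 7314 in NK cells. In all 3 classes that list, too, was highest in the combination, and its part in the Ppp1r15a values was not tested. The gene (chr7:45522916-45526268, -) overlaps Tulp2 on the other strand.

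**Figure D2:**
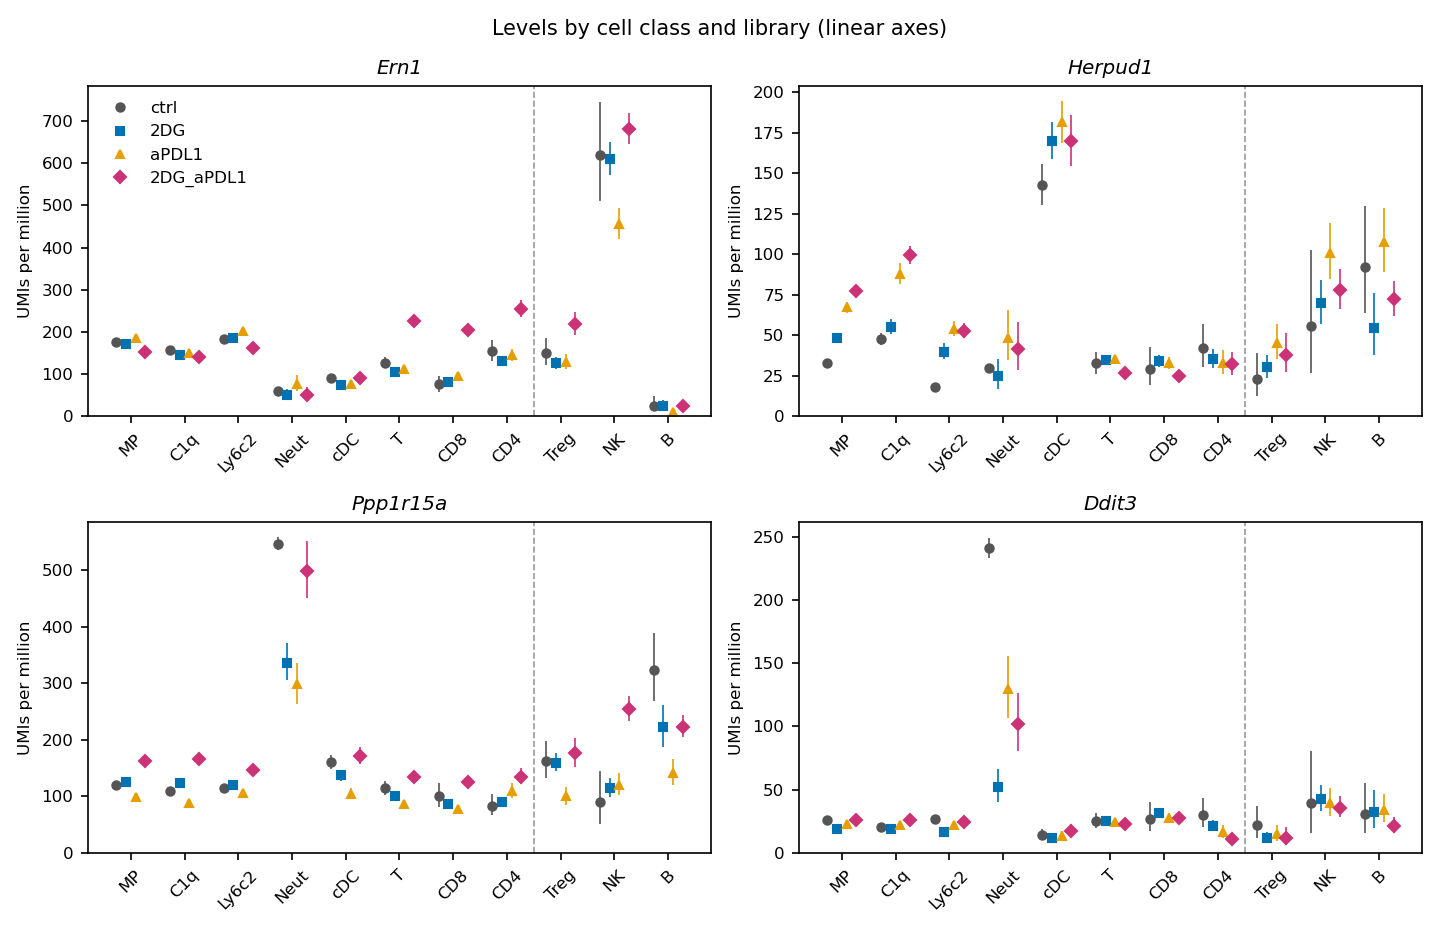
Level of Ern1, Herpud1, Ppp1r15a and Ddit3 in CPM on linear axes, with 1 point per library and exact Poisson 95% intervals, in 11 classes. The dashed line parts the 3 classes with under 100 ctrl cells; Ern1 stands out in the combination in T cells (226 CPM against 105 to 126), and Ddit3 in ctrl neutrophils (241 CPM against 51.6 to 129).

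On the chaperone side 1 member, Pdia4, was past 1.5-fold in mononuclear phagocytes. The median log2 ratios over its 14 members were -0.03 for 2DG over ctrl, 0.14 for the combination over aPDL1, 0.02 for aPDL1 over ctrl and 0.24 for the combination over 2DG, and TMM scaling turned them to -0.17, 0.25, -0.14 and 0.32, where that of aPDL1 over ctrl changed sign. Hspa5, the gene of the master chaperone BiP and the most used readout of this response (chr2:34771970-34777547, +), stood at 847 CPM in ctrl, 799 in 2DG, 853 in aPDL1 and 983 in the combination. 2DG over ctrl was thus -0.08 (-0.11 to -0.06), and the combination was 0.20 (0.18 to 0.23) above aPDL1 and 0.30 (0.27 to 0.33) above 2DG. These differences are small beside the 1.5-fold used, and no replicate measures whether animals differ by as much. Over 2DG the combination was above 0 in 8 of 8 clusters of these cells, from 0.25 to 0.41, and in all 8 classes, from 0.10 to 0.46.

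The combination was above aPDL1 in 12 of the 14 chaperone-side members and above 2DG in 13. These counts take any ratio above 0, and 0 of the 14 were past 1.5-fold in either pair. All genes had medians of -0.09 and -0.08 in these pairs, and the share of all genes above 0 was not counted. Sdf2l1, Manf and Creld2 were chosen after their values were seen. Sdf2l1, a BiP cofactor, stood at 56.1, 57.9, 56.4 and 82.6 CPM, with the combination alone above the rest, 0.55 (0.45 to 0.65) above aPDL1 and 0.51 (0.41 to 0.61) above 2DG. Manf, a BiP-binding protein secreted on ER calcium loss, stood at 153, 134, 157 and 192 CPM, and the combination exceeded aPDL1 by 0.29 (0.23 to 0.35) and 2DG by 0.52 (0.45 to 0.58). Creld2, a disulfide isomerase-like protein, stood at 20.2, 20.6, 27.2 and 29.1 CPM, and aPDL1 over ctrl was 0.43 (0.27 to 0.58), short of 1.5-fold. Without the ctrl-rich clusters ctrl read 16.5 CPM and that ratio was 0.79, the 1 member then called higher in this pair, beside 8.94% of all genes. In C1q macrophages, cells with the complement genes C1qa to C1qc, Creld2 stood at 21.1, 26.9, 39.5 and 36.6 CPM, 0.90 (0.67 to 1.14) above ctrl with aPDL1, and 1.15 without those clusters. None of the remaining large chaperones was past 1.5-fold in mononuclear phagocytes: Hsp90b1 (GRP94) lay between 442 and 529 CPM, Pdia6 between 192 and 214, Pdia3 between 317 and 354, Canx (calnexin) between 226 and 269, Calr (calreticulin) between 516 and 637, and Dnajc3 (p58IPK) between 113 and 157.

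Pdia4, a disulfide isomerase, stood at 84.1 CPM in ctrl and 49.8, 52.5 and 60.3 in the others, -0.76 (-0.86 to -0.66) below ctrl with 2DG and -0.68 (-0.78 to -0.59) with aPDL1. Without the ctrl-rich clusters the ratios were -0.53 and -0.50. In Ly6c2 monocytes Pdia4 stood at 71.5, 27.7, 29.8 and 32.4 CPM, ratios of -1.37 and -1.26, but at 30.2, 25.4, 24.6 and 31.6 without those clusters.

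Herpud1, a membrane protein of ER-associated degradation (chr8:94386438-94395377, +), was the 1 member past 1.5-fold in the same direction in both aPDL1 pairs in mononuclear phagocytes, which 1.42% of all genes were. It stood at 32.5 CPM in ctrl, 48.4 in 2DG, 67.2 in aPDL1 and 77.1 in the combination. aPDL1 was 1.05 (0.94 to 1.16) above ctrl, and the combination was 0.67 (0.56 to 0.78) above 2DG. Without the ctrl-rich clusters the levels were 52.5, 50.2, 72.8 and 79.0 CPM, so that aPDL1 over ctrl fell short of 1.5-fold at 0.47 while the combination over 2DG was 0.65. Both libraries with aPDL1 were above both without it in either case. Within single clusters it was above 0 in 6 of 8 for aPDL1 over ctrl and in 7 of 8 for the combination over 2DG.

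In C1q macrophages Herpud1 stood at 47.5 and 55.2 CPM in ctrl and 2DG and at 87.9 and 99.3 CPM in aPDL1 and the combination, ratios of 0.89 (0.73 to 1.04) and 0.85 (0.70 to 1.0), past 1.5-fold in both pairs like 0.851% of all genes. Without the ctrl-rich clusters these were 0.61 and 0.84. Over the settings tried they ranged from 0.52 to 0.92 and from 0.82 to 0.93. In Ly6c2 monocytes the levels were 18.1, 39.8, 54.1 and 52.7 CPM and ctrl was lowest, by 1.14 (0.89 to 1.38) below 2DG and 1.58 (1.37 to 1.79) below aPDL1, or 0.58 and 1.04 without those clusters. Dendritic cells, at 143, 170, 181 and 170 CPM, and T cells, at 32.6, 34.6, 35.1 and 26.6, did not show the pattern. In neutrophils Herpud1 was also called higher with aPDL1 than in ctrl, at 0.73, as were 28.7% of all genes. It had under 50 UMIs there for the combination over 2DG. The other degradation genes were flat in mononuclear phagocytes: Edem1, a lectin for misfolded glycoproteins, lay between 110 and 142 CPM, and the ubiquitin ligase pair Sel1l and Syvn1 between 60.4 and 73.5 and between 13.4 and 17.4 CPM. Herpud1 overlaps Gm15890 on the other strand.

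**Figure D3:**
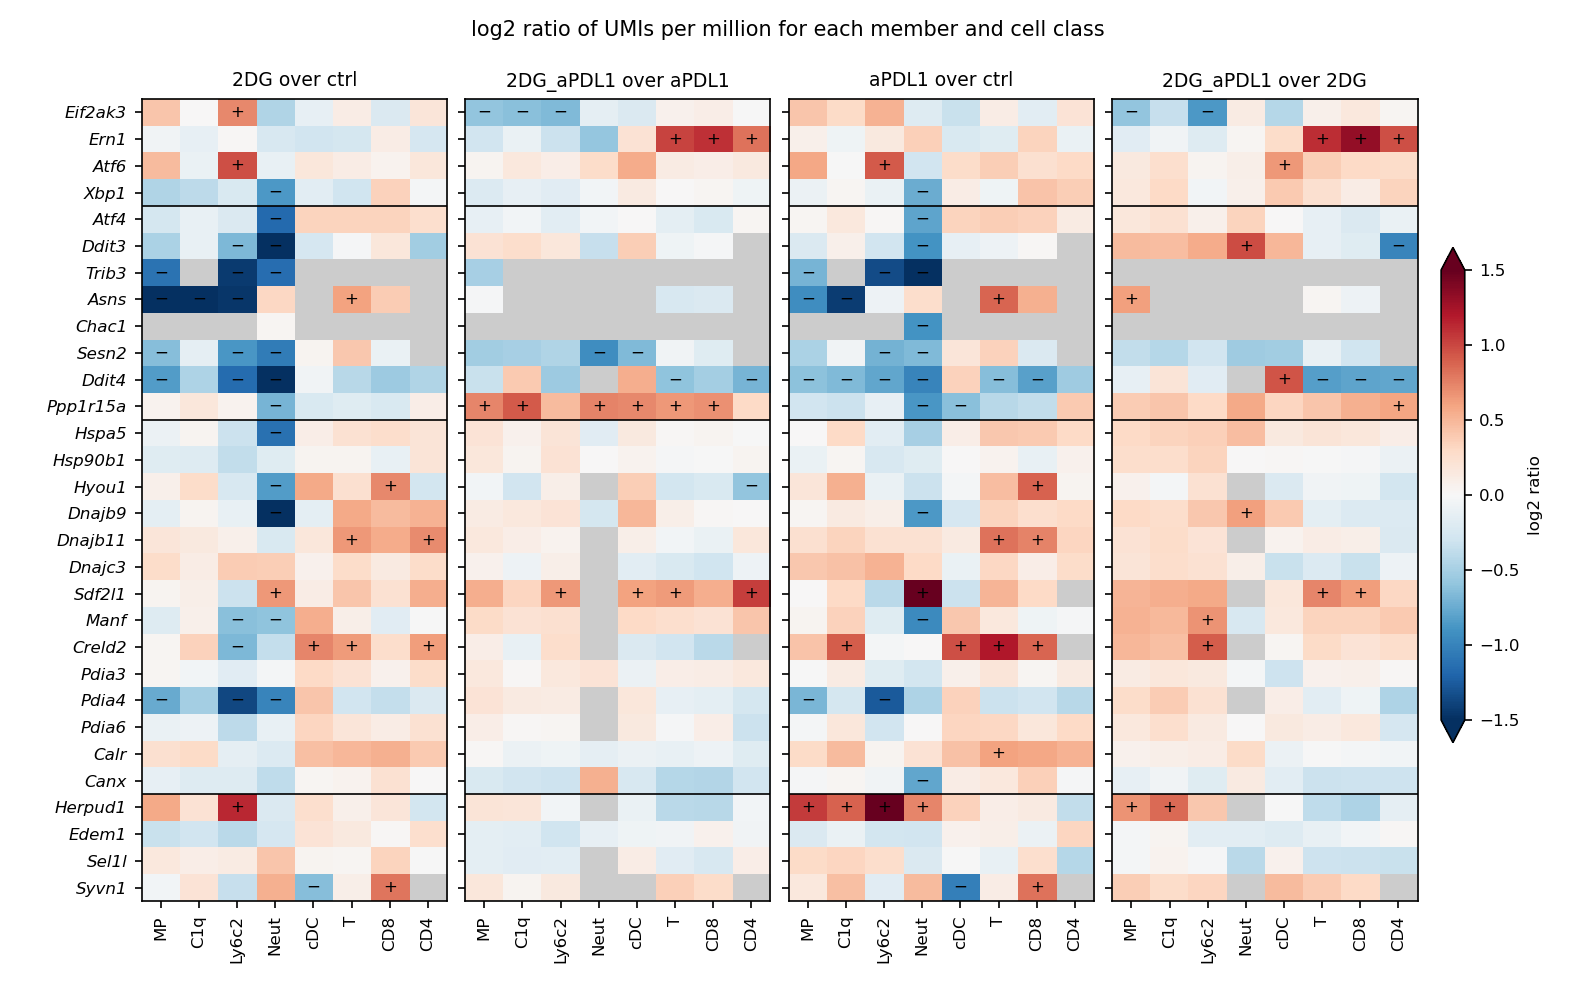
Log2 ratio of each of the 30 members (rows, by role) in 8 classes (columns) for the 4 pairs (panels), with + and - for members past 1.5-fold with at least 50 UMIs and grey for members under 50 UMIs. Lower values against ctrl gather on the ATF4 side of the neutrophil and Ly6c2 monocyte columns, and Ern1 carries + in the T, CD8 and CD4 columns of both pairs of the combination.

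Counts in the subclasses of mononuclear phagocytes and in dendritic cells were as follows. In Ly6c2 monocytes 2DG over ctrl had 3 higher and 8 lower of 29 (19% and 11.4% of all genes), the combination over aPDL1 1 and 1 of 27 (4.13% and 7.69%), aPDL1 over ctrl 2 and 4 of 29 (20.5% and 10.7%), and the combination over 2DG 2 and 1 of 27 (5.12% and 6.05%). TMM scaling turned these to 2 and 11, 1 and 0, 2 and 5, and 4 and 1. Without the clusters mostly of 1 library 2DG over ctrl had 1 higher and 0 lower of 27 (9.81% and 4.74% of all genes) and aPDL1 over ctrl 3 and 0 of 27 (12.8% and 5.68%), so none of the 8 lower members was called there. In C1q macrophages the counts were 0 and 1 of 28 (5.77% and 9%), 1 and 1 of 27 (4.96% and 8.42%), 2 and 2 of 28 (6.59% and 8.99%), and 1 and 0 of 27 (4.59% and 6.75%). With TMM the combination over aPDL1 had 1 higher and 0 lower.

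Ly6c2 monocytes held several members highest in ctrl, among them Ddit4 at 63.0, 28.3, 36.7 and 25.2 CPM and Sesn2 at 29.95, 16.3, 18.3 and 13.4. Without the ctrl-rich clusters Ddit4 stood at 29.6, 27.1, 27.8 and 23.4 and Sesn2 at 21.4, 15.2, 16.7 and 12.0 CPM. With all cells of the class Trib3 had 54, 8, 14 and 15 UMIs. Over the settings tried its ratio to ctrl ranged from -1.78 to -0.40 with 2DG and from -1.55 to -0.45 with aPDL1. Asns was lowest with 2DG at 1.23 CPM from 8 UMIs, against 3.57, 3.37 and 3.71 CPM in ctrl, aPDL1 and the combination, and Creld2 was also lowest with 2DG at 11.4 CPM against 18.3, 17.8 and 21.4. A level at least 1.5-fold below all others in 2DG was found for 1.19% of all genes. Over the settings tried Asns ranged from -1.69 to -0.72 for 2DG over ctrl and from -0.83 to 0.70 for aPDL1 over ctrl. Creld2 stood at 12.0, 11.1, 17.0 and 21.4 CPM without those clusters, so that its low value was then shared by ctrl. In C1q macrophages Asns rested on 52, 12, 12 and 15 UMIs, at 3.98 CPM in ctrl and 1.21 to 1.43 in the others, and its ratios of -1.67 and -1.43 against ctrl were -1.58 and -1.32 without those clusters. A ctrl level at least 1.5-fold above all others was found for 4.96% of all genes in that class and 7.18% in Ly6c2 monocytes.

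Conventional dendritic cells had 1 higher and 1 lower of 27 for 2DG over ctrl (6.67% and 5.65% of all genes), 2 and 1 of 26 for the combination over aPDL1 (5.24% and 8.94%), 1 and 2 of 27 for aPDL1 over ctrl (8.43% and 8.26%), and 2 and 0 of 27 for the combination over 2DG (5.55% and 10.4%). Syvn1 was called lower in both pairs over ctrl, at -0.64 with 2DG and -1.03 with aPDL1. Creld2 was called higher in both, at 21.1 CPM in ctrl and 35.3, 41.6 and 35.8 in the others. It was 0.73 (0.35 to 1.14) above ctrl with 2DG and 0.97 (0.58 to 1.39) with aPDL1. A ctrl level this far below all others was found for 4.08% of all genes in the class. The levels came from 286 ctrl cells, and the Creld2 ratios were 0.76 and 1.0 without the clusters mostly of 1 library.

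Neutrophils carried the widest differences, all against ctrl. 2DG over ctrl had 1 higher and 12 lower of 30 members (33.4% and 17.3% of all genes), and aPDL1 over ctrl 2 higher and 11 lower of 30 (28.7% and 16.8%). The combination over aPDL1 had 1 and 1 of 15 (12.4% and 9.25%), and the combination over 2DG 2 and 0 of 19 (8.87% and 7.44%). TMM, which shifts the ratios against ctrl by -0.385 and -0.37, gave 0 and 20, 1 and 18, 1 and 2, and 1 and 1 in that order of naming. Without the clusters mostly of 1 library, 2DG over ctrl had 5 higher and 5 lower of 22 (18.2% and 9.44%), and aPDL1 over ctrl 2 and 4 of 22 (18.1% and 12.1%). The ctrl class had 2857 cells and the others 247 to 313.

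On the ATF4 side, Ddit3 stood at 241 CPM in ctrl neutrophils, 51.6 in 2DG, 129 in aPDL1 and 102 in the combination. It was -2.21 (-2.60 to -1.87) below ctrl with 2DG and -0.89 (-1.18 to -0.63) with aPDL1, and 0.98 (0.49 to 1.47) higher in the combination than in 2DG. Without those clusters the levels were 105, 32.7, 51.5 and 46.0 CPM, and ctrl was still the highest, by -1.67 and -1.01. Atf4 stood at 293, 130, 169 and 163 CPM, ratios of -1.17 (-1.41 to -0.95) and -0.79 (-1.05 to -0.56), which were -0.47 and -0.25 without them and so short of 1.5-fold. Ddit4 stood at 76.9, 12.9, 38.1 and 18.9 CPM, ratios of -2.53 (-3.39 to -1.87) and -0.99 (-1.56 to -0.52), and at -1.09 and -2.10 without them on 3 to 73 UMIs.

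Sesn2 was the 1 member lower than its partner past 1.5-fold in both 2DG pairs, as were 2.57% of all genes, at 138 CPM in ctrl against 66.2 with 2DG and 86.6 with aPDL1 against 45.2 in the combination. The ratios were -1.05 (-1.39 to -0.74) and -0.93 (-1.55 to -0.34), and -0.56 and -0.80 without the clusters mostly of 1 library, where the first was no longer past 1.5-fold. Trib3 had 202, 7, 1 and 8 UMIs and Chac1 113, 9, 3 and 0 in neutrophils, too few outside ctrl to rank those libraries. Hyou1, a large ER chaperone, had 425, 19, 19 and 8 UMIs and Sdf2l1 58, 7, 10 and 3. By the size rule Trib3 was lowest in aPDL1 (5.71% of all genes), Chac1 and Hyou1 lowest in the combination (4.94%) and Sdf2l1 highest in aPDL1 (2.78%), each on 10 UMIs or fewer in the library named. Ppp1r15a stood at 547, 336, 298 and 499 CPM, the combination again above both single treatments, by 0.74 (0.51 to 0.98) and 0.57 (0.37 to 0.77).

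On the chaperone side of neutrophils, Hspa5 stood at 983, 450, 697 and 618 CPM, -1.12 (-1.25 to -1.0) below ctrl with 2DG, against 499, 396, 352 and 481 CPM and -0.33 without the ctrl-rich clusters. Dnajb9, a BiP cochaperone and a textbook XBP1 target, stood at 274, 81.5, 150 and 124 CPM, ratios of -1.74 (-2.05 to -1.46) and -0.86 (-1.13 to -0.61), against -0.86 and -0.35 without them. Xbp1 itself stood at 452, 249, 270 and 263 CPM, and at 407, 237, 241 and 259 without them, so its ctrl excess of about the same ratio remained in both, -0.86 and -0.78 for 2DG and -0.74 and -0.75 for aPDL1. Manf turned its direction: it stood at 75.1, 49.2, 38.1 and 41.5 CPM in all neutrophils, but at 19.7, 46.3, 33.8 and 27.0 CPM without those clusters. The 5 members called higher with 2DG than in ctrl without them were Hsp90b1 at 1.27, Manf at 1.24, Pdia6 at 0.77, Canx at 0.65 and Pdia3 at 0.63, all of the chaperone side, beside the 18.2% of all genes given above. The hypoxia list stood at 3480, 1113, 2069 and 1416 CPM in neutrophils and a list of 8 cytosolic heat shock genes at 2518, 970, 1362 and 940, both highest in ctrl like the members above, and their part was not tested. A ctrl level at least 1.5-fold above all others was found for 7.61% of all genes in the class.

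**Figure D4:**
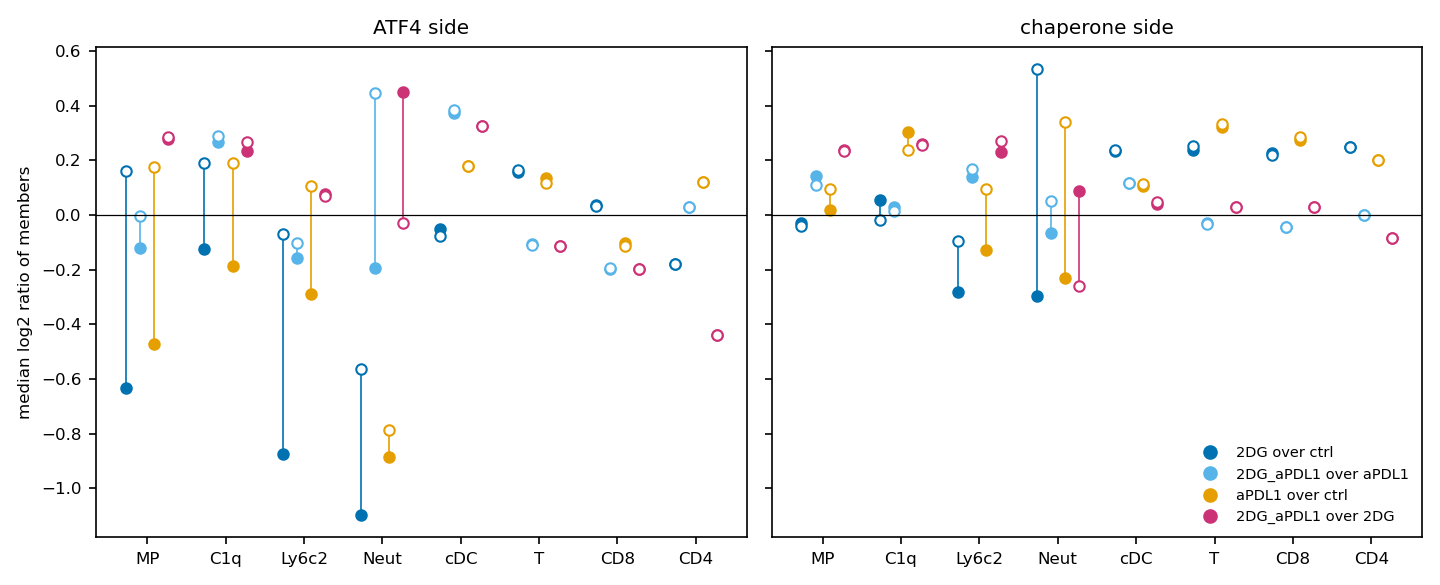
Median log2 ratio of the ATF4 side and of the chaperone side by class for the 4 pairs, with filled points for all cells of a class and open points without the clusters that are mostly of 1 library. In mononuclear phagocytes the ATF4 side lies at -0.63 for 2DG over ctrl with all cells and at 0.16 without those clusters, while the chaperone side lies at -0.03 and -0.04. Medians use members with at least 50 UMIs, so the value of 0.16 leaves out Asns and Trib3.

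T cells showed another set of members, and leaving out the clusters mostly of 1 library changed no count there. In 28 members with enough UMIs, 2DG over ctrl had 3 higher and 0 lower (6.12% and 8.3% of all genes), the combination over aPDL1 3 and 1 (4.58% and 6.35%), aPDL1 over ctrl 4 and 1 (7.88% and 9.86%), and the combination over 2DG 2 and 1 (4.39% and 7.21%). With TMM 2DG over ctrl had 5 and 0, the combination over aPDL1 3 and 0 and aPDL1 over ctrl 5 and 0.

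Ern1, the gene of IRE1 (chr11:106394650-106487852, -), stood at 126 CPM in ctrl T cells, 105 in 2DG, 112 in aPDL1 and 226 in the combination. The combination was 1.79 times the next library. It was 1.02 (0.93 to 1.10) above aPDL1 and 1.10 (1.02 to 1.18) above 2DG on the log2 scale, whereas 2DG and aPDL1 alone were -0.27 and -0.18 against ctrl. A level at least 1.5-fold above all other libraries in the combination was found for 1.84% of all genes. The ratios ranged from 0.91 to 1.09 and from 1.0 to 1.17 over the settings tried, and were above 0 in 6 of 6 T cell clusters in both pairs, from 0.61 to 1.42 and from 0.29 to 1.96.

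The combination was highest in the T cell subclasses too. In CD8 T cells Ern1 stood at 75.4, 82.2, 95.9 and 206 CPM, ratios of 1.10 (0.99 to 1.21) over aPDL1 and 1.32 (1.20 to 1.44) over 2DG, beside 1.92% of all genes this far above the rest. In Foxp3-negative CD4 T cells it stood at 155, 130, 145 and 255 CPM, beside 1.88% of all genes, and in regulatory T cells at 151, 126, 129 and 218. NK cells, where the gene read 619, 610, 456 and 682 CPM, and B cells, with 25.1, 24.0, 8.94 and 23.3, did not have it 1.5-fold above the other 3 libraries in the combination. Neither did mononuclear phagocytes, where the combination was the lowest of the 4. Since NK cells read high for Ern1, the 8 NK markers were summed in the T cell class: 528, 664, 914 and 994 CPM, with no marker at 0 in every library and the defining Ncr1 at 0.701, 1.04, 0.733 and 0.557. The immediate early list given above was also highest in T cells of the combination, and the part of either in the Ern1 values was not tested. Ern1 overlaps no other annotated gene.

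Sdf2l1, too, was highest in the combination in T cells, at 15.4, 20.8, 22.1 and 34.6 CPM, the combination 0.64 (0.45 to 0.84) above aPDL1 and 0.73 (0.54 to 0.92) above 2DG and above 0 in 6 of 6 clusters in both pairs. Hspa5 in T cells stood at 373, 438, 494 and 502 CPM, and Xbp1 at 41.3, 33.8, 39.8 and 39.8, neither past 1.5-fold. Eif2ak3 at 128, 138, 139 and 146 CPM and Atf6 at 180, 194, 231 and 252 were within 1.5-fold too.

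Ddit4 went the other way in T cells. It stood at 53.9 CPM in ctrl, 40.7 in 2DG, 34.8 in aPDL1 and 22.8 in the combination, lower past 1.5-fold in both aPDL1 pairs at -0.63 (-0.89 to -0.36) and -0.83 (-1.02 to -0.65), as were 2.17% of all genes. The combination was also -0.61 (-0.80 to -0.42) below aPDL1 and 1.5-fold below all other libraries, as were 2.86% of all genes. Over the settings tried aPDL1 over ctrl lay between -0.67 and -0.54 and was short of 1.5-fold with TMM scaling, with Leiden clusters as classes and with the mean of single-cell CPM. The combination over aPDL1 lay between -0.62 and -0.53 and was short of it with TMM scaling and Leiden clusters. In single T cell clusters the pairs of the combination were below 0 in 6 of 6, from -0.96 to -0.32 over 2DG and from -0.65 to -0.15 over aPDL1, but aPDL1 over ctrl was above 0 in 3 of 5. In CD8 T cells Ddit4 stood at 49.5, 34.4, 28.4 and 19.9 CPM (1.14% of all genes were lower in both aPDL1 pairs), and in Foxp3-negative CD4 T cells at 44.2, 32.5, 30.6 and 18.8. The hypoxia list stood at 485, 338, 306 and 254 CPM in T cells, in the same order as Ddit4, and its part was not tested.

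Several members were lowest in ctrl T cells. Dnajb11, a BiP cochaperone, stood at 39.6 CPM in ctrl and 62.5, 69.8 and 67.6 in the others, 0.65 (0.38 to 0.95) above ctrl with 2DG and 0.81 (0.54 to 1.11) with aPDL1. Creld2 stood at 7.71, 12.2, 18.2 and 14.9 CPM, with 22 ctrl UMIs behind ratios of 0.64 (0.03 to 1.37) and 1.21 (0.61 to 1.93). Asns stood at 3.85, 6.08, 7.33 and 6.19 CPM, with intervals of -0.24 to 1.70 and 0.04 to 1.97 around ratios of 0.60 and 0.87. Calr stood at 255, 360, 387 and 359 CPM. A ctrl level at least 1.5-fold below all others was found for 4.19% of all genes in T cells, so these members lie among many. The make-up of the class also differed. CD8 T cells were 121 of 410 in ctrl, 1364 of 2723 in 2DG, 1597 of 2610 in aPDL1 and 1671 of 2629 in the combination. The part of this make-up in the values was not tested. Trib3 and Chac1 had 1 to 10 and 0 to 3 UMIs in T cells.

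In CD8 T cells the counts were 2 higher and 0 lower of 28 for 2DG over ctrl (8.92% and 9.43% of all genes), 2 and 0 for the combination over aPDL1 (4.79% and 6.23%), 4 and 1 for aPDL1 over ctrl (11.5% and 10.1%), and 2 and 1 for the combination over 2DG (4.98% and 5.01%). Hyou1 and Syvn1 were the members lowest in ctrl there, at 12.4, 21.2, 23.9 and 20.4 and at 5.62, 10.7, 10.8 and 13.2 CPM, from 121 ctrl cells, where 8.03% of all genes were 1.5-fold below the rest in ctrl. The interval of 2DG over ctrl held 0 for both, -0.09 to 1.80 for Hyou1 and -0.34 to 2.58 for Syvn1. With Leiden clusters as classes Syvn1 turned to -0.28 for 2DG and -0.23 for aPDL1 over ctrl. Over the settings tried Hyou1 went as low as 0.01 for 2DG over ctrl and 0.17 for aPDL1 over ctrl. In Foxp3-negative CD4 T cells the counts were 2 and 0 of 25 (7.55% and 7.09%), 2 and 2 of 23 (5.4% and 7%), 0 and 0 of 22 (8.5% and 6.67%), and 2 and 2 of 25 (6.11% and 10.4%) in the same order, and TMM gave 2 and 1 for the combination over aPDL1 and 1 and 0 for aPDL1 over ctrl. Ddit3 was lowest in the combination there, at 30.1, 21.2, 16.5 and 10.6 CPM from 27 to 94 UMIs, beside 3.66% of all genes. Creld2 was lowest in ctrl at 8.03, 13.1, 14.6 and 15.6, beside 3.63%, but with Leiden clusters as classes its 2DG over ctrl ratio turned to -0.31.

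Over all 8 classes, which overlap, the chaperone side gave 112 combinations of gene and class for 2DG over ctrl, of which 7 were higher and 9 lower. Of 103 with enough UMIs in the combination over aPDL1, 4 were higher and 1 lower, of 110 for aPDL1 over ctrl 9 and 5, and of 107 for the combination over 2DG 5 and 0. The ATF4 side gave 1 higher and 16 lower of 49 for 2DG over ctrl, and 6 higher and 4 lower of 41 for the combination over aPDL1. For aPDL1 over ctrl it gave 1 higher and 18 lower of 48, and for the combination over 2DG 4 and 4 of 41. Over the same classes 12.1% of all such combinations of gene and class were higher and 9.63% lower for 2DG over ctrl, 5.09% and 7.55% for the combination over aPDL1, 13.2% and 10.1% for aPDL1 over ctrl, and 5.17% and 7.37% for the combination over 2DG. These counts use all cells. Without the clusters mostly of 1 library, 0 of 27 members of all sides were lower than ctrl in mononuclear phagocytes, C1q macrophages or Ly6c2 monocytes. That held with 2DG and with aPDL1, where 4.74% to 11.8% of all genes were lower. In neutrophils 5 and 4 of 22 were then lower (9.44% and 12.1% of all genes). In all cells Hspa5 with 2DG over ctrl lay between -1.12 in neutrophils and 0.27 in CD8 T cells, and in the combination over aPDL1 between -0.17 and 0.20.

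Other genes of the pathway, from lists of 114 genes without members of which 113 were found, were mostly level in mononuclear phagocytes. Of 39 other ATF4 targets found, 0 were higher and 4 lower of 32 for 2DG over ctrl, 2 and 3 of 31 for the combination over aPDL1, 2 and 4 of 32 for aPDL1 over ctrl, and 2 and 1 of 31 for the combination over 2DG, with medians of 0.03, -0.13, 0.03 and -0.13. Of other ER folding genes 2 and 3, 0 and 1, 2 and 1, and 0 and 0 of 37 were higher and lower. Other degradation genes gave 0 and 1, 1 and 0, 0 and 1, and 1 and 0 of 17. Other kinases and phosphatase parts of the integrated stress response gave 1 and 0, 0 and 1, 1 and 0, and 0 and 1 of 10. Other sensor-side genes gave 0 and 1, 0 and 0, 1 and 0, and 0 and 0 of 7. These counts are small, and their difference from the background shares given for the same pairs was not tested. The 0 of 32 other ATF4 targets higher for 2DG over ctrl stood beside 11.7% of all genes.

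The rule for these lists named 4 genes, and ctrl myeloid values are given again without the clusters mostly of 1 library. Ero1l, the oxidase that recharges disulfide isomerases and a hypoxia target, stood at 458, 125, 167 and 106 CPM in mononuclear phagocytes, lower in both 2DG pairs at -1.87 and -0.66 (1.64% of all genes), and at 1656, 256, 657 and 436 in neutrophils. Without those clusters it stood at 119.9, 84.7, 87.3 and 82.9 CPM in mononuclear phagocytes, -0.50 and -0.07 in the 2DG pairs and so short of 1.5-fold, and at 289.5, 134, 95.0 and 132 in neutrophils. Psat1, of serine synthesis, stood at 16.5, 10.0, 11.6 and 6.97 CPM in C1q macrophages, -0.71 and -0.73 in the 2DG pairs (1.8% of all genes), and -1.07 and -0.74 without those clusters. Nupr1, a stress-induced chromatin protein, stood at 5.28, 13.6, 19.2 and 32.5 CPM in dendritic cells, higher in both pairs of 2DG (0.943% of all genes) and of aPDL1 (1.82%), and Ero1l was lower there in both 2DG pairs (0.863%). Without those clusters Nupr1 stood there at 5.39, 13.7, 19.2 and 31.6 CPM, and Ero1l at 70.6, 24.5, 38.3 and 20.7. In dendritic cells the Ly6c2 monocyte marker list stood at 294, 478, 519 and 976 CPM and the mononuclear phagocyte list at 419, 535, 640 and 751. Both have the same order as Nupr1, and no gene of either was at 0 in every library. Their part in the Nupr1 values was not tested. Creb3l2, an ER-bound factor related to ATF6, stood at 82.4, 80.8, 135 and 396 CPM in Foxp3-negative CD4 T cells, 0.70 and 2.29 higher in the aPDL1 pairs (1.98% of all genes), and at 18.0, 14.99, 28.1 and 52.5 in CD8 T cells (1.04%), so that, like Ern1, it was highest in the combination. Slc7a11, the cystine transporter and an ATF4 and NRF2 target, was chosen after its values were seen: it stood at 424, 125, 128 and 368 CPM in mononuclear phagocytes, and at 143, 106, 115 and 344 without those clusters, where the combination alone was high.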

How the data were processed

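For each of 4 libraries the authors deposited a matrix of UMI counts, genes by barcodes, whole numbers with no scaling, per the file headers. The headers give Cell Ranger 7.0.0, while the submitters' processing notes give Cell Ranger 3.1.0 and the build mm10. It is not known which of these versions produced the matrices, nor if intronic reads count in them (not given in the sources used here). Barcodes needed 500 detected genes and no more than 10% mitochondrial UMIs, which 35372 met, and the highest Scrublet scores (scanpy 1.11.5) were removed at 0.8% per 1000 barcodes, 553 to 740 cells per library, since the automatic threshold marked 0% in ctrl.

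Cells were put into a class where they held a set number of its markers (4 of 15 for mononuclear phagocytes, 5 of 10 for neutrophils, 4 of 10 for T cells) and led over the other lists by 0.15. Cells right at that number were 1.48%, 9.98% and 3.57% of those classes, and 27.1% of dendritic cells. These numbers were set after seeing marker counts, without member values. Clusters came from 2000 genes, 30 components, 15 neighbours and Leiden resolution 1. Counts were summed per class and library. Log2 ratios used an added count of 0.5, and intervals are exact Poisson for CPM and exact Clopper-Pearson for ratios. edgeR 4.0.16 was used for TMM factors only, and the sums were checked on simulated data. PCR copies are removed by the identifiers, but cells of 1 library are not replicates.

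Members are named where they were past 1.5-fold the same way in both pairs of 1 treatment, or lay 1.5-fold outside the other 3 libraries in 1 library. The sensors, Atf4, Ddit3, Xbp1 and Hspa5 are always given in mononuclear phagocytes, and other members are added for context. Of each pathway list, up to 2 genes per direction were named by the smaller of both ratios, and not all are described. The members and lists were chosen with earlier results of these data known. 9 alternatives were tried, 8 planned and 1 (leaving out clusters mostly of 1 library) chosen after seeing the data.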

Additional observations from a re-analysis of the deposited data

Results flagged for a closer look

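Of the members, 5 moved past 1.5-fold in opposite directions in both pairs of 1 treatment in a class. Each pair is 1 library against 1 library, so the difference between the pairs was not tested. Asns in mononuclear phagocytes was at -0.93 for aPDL1 over ctrl and at 0.62 for the combination over 2DG, and at -0.53, short of 1.5-fold, and 0.60 without the clusters mostly of 1 library. Eif2ak3 in Ly6c2 monocytes was at 0.72 for 2DG over ctrl and at -0.66 for the combination over aPDL1, and at 0.43, short of it, and -0.69 without them. Ppp1r15a in neutrophils was at -0.70 for 2DG over ctrl and 0.74 for the combination over aPDL1, and at -0.23, short of it, and 1.14 without them. Ddit3 in neutrophils was at -0.89 for aPDL1 over ctrl and 0.98 for the combination over 2DG, and at -1.01 and 0.50 without them, the second short of it. Dnajb9 there was at -0.86 and 0.61, and at -0.35 and 0.55 without them, both short of it. Since 1 pair of each treatment is over ctrl by design, ctrl enters all 5.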

How the results depend on the processing

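No paired analysis was possible because each group holds 1 library, and for the same reason no replicate could be left out. Of 1316 recalculated ratios of single named members 78 changed sign, 13 of them from a called value. Members counted past 1.5-fold and medians moved in 185 of 576 and 36 of 512. Unless a cause is given, the cause was not tested. The values below are for mononuclear phagocytes, neutrophils and T cells, as members higher or lower.

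Leaving out the clusters mostly of 1 library removes most ctrl myeloid cells. The ATF4 side median in mononuclear phagocytes then turned to 0.16 for 2DG over ctrl and 0.17 for aPDL1 over ctrl, and lower members went to 0 in both. Asns and Trib3 were then under the minimum of UMIs and are in neither median. Trib3 there turned to 0.40 and 0.61 and Ddit4 to 0.27 and 0.10. In neutrophils 2DG over ctrl had 5 higher and 5 lower, the combination over aPDL1 0 lower, aPDL1 over ctrl 4 lower, and the combination over 2DG 1 higher and 3 lower. Trib3 turned to 1.67 and 0.18 there, Manf to 1.24 and 0.80, and Hyou1 to 0.87 for 2DG over ctrl. Trib3 and Hyou1 had few UMIs outside ctrl even with all neutrophils, as given above, so no direction is read from their turned ratios.

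TMM factors gave medians for the ATF4 side of -0.64 for aPDL1 over ctrl and 0.36 for the combination over 2DG, and for the chaperone side of -0.17, 0.25, -0.14 and 0.32 in the order of the pairs. In mononuclear phagocytes the combination had 2 higher and 0 lower over aPDL1 and 4 higher and 0 lower over 2DG. In neutrophils 2DG over ctrl had 0 higher and 20 lower, the combination over aPDL1 2 lower, aPDL1 over ctrl 1 higher and 18 lower, and the combination over 2DG 1 higher and 1 lower. In T cells 2DG over ctrl had 5 higher, and the combination over aPDL1 and aPDL1 over ctrl 0 lower. These shifts follow from the scaling of all genes.

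A 2-fold threshold, which can only lower a count, left in mononuclear phagocytes 2 lower for 2DG over ctrl and 1 higher (Herpud1) and 0 lower for aPDL1 over ctrl, and 0 higher and 0 lower in the combination's pairs. In neutrophils it left 7 lower and 0 higher for 2DG over ctrl, 1 higher and 1 lower for aPDL1 over ctrl, and 0 for the combination's pairs. In T cells it left 1 higher in each pair but 2DG over ctrl, which had 0, and 0 lower in every pair. With no minimum of UMIs, mononuclear phagocytes had 2 lower for the combination over aPDL1 and 2 higher for aPDL1 over ctrl. Neutrophils had 2 higher and 6 lower for the combination over aPDL1 and 7 higher and 2 lower for the combination over 2DG, and T cells 3 lower in both pairs of the combination.

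With Leiden clusters as classes, mononuclear phagocytes had 0 lower for both pairs of the combination, 2 higher for aPDL1 over ctrl and 1 higher for the combination over 2DG. Neutrophils had 0 higher for 2DG over ctrl, 2 higher for the combination over aPDL1 and 4 higher for the combination over 2DG. T cells had 1 higher for 2DG over ctrl and 0 lower for the combination over aPDL1 and for aPDL1 over ctrl. Syvn1 in CD8 T cells turned to -0.28 for 2DG over ctrl and -0.23 for aPDL1 over ctrl, and Creld2 in CD4 T cells to -0.31 for 2DG over ctrl. With the mean of single-cell CPM the chaperone median for 2DG over ctrl was -0.13, and mononuclear phagocytes had 2 and 4 higher for the combination over aPDL1 and over 2DG. Neutrophils had 0 higher for 2DG over ctrl, 2 higher and 2 lower for the combination over aPDL1, 1 higher for aPDL1 over ctrl and 1 higher and 1 lower for the combination over 2DG. T cells had 1 higher for 2DG over ctrl and 0 lower for aPDL1 over ctrl, and Sdf2l1 in neutrophils turned to -0.99 for 2DG over ctrl.

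At least 1000 genes per cell gave mononuclear phagocytes 1 higher for 2DG over ctrl and 2 higher for aPDL1 over ctrl, and neutrophils 0 lower for the combination over aPDL1 and 1 higher for aPDL1 over ctrl. With no doublet removal the combination over 2DG had 1 higher and 0 lower in mononuclear phagocytes and 2 lower in neutrophils. With 1 more marker in the gate it had 0 lower in mononuclear phagocytes, and neutrophils had 2 higher for 2DG over ctrl and 2 lower for the combination over aPDL1. Depth limits Chac1, Trib3 and Asns in several classes, and many members in neutrophils outside ctrl. In neutrophils 15 members had enough UMIs for the combination over aPDL1 and 19 for the combination over 2DG.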

Other observations

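The classes with under 100 ctrl cells add levels that the comparisons above do not use. In B cells Eif2ak3 read 422, 527, 573 and 477 CPM in ctrl, 2DG, aPDL1 and the combination, against 19.2 to 28.9 CPM in mononuclear phagocytes, and Atf6 read 338, 423, 435 and 437. Calr in B cells read 159, 243, 356 and 251 CPM, lowest in ctrl with 62 cells. Ern1 read lowest in B cells, at 8.94 to 25.1 CPM, and highest in NK cells, at 456 to 682. In NK cells Sdf2l1 read 33.5, 33.2, 15.03 and 49.0 CPM. Regulatory T cells read 76.3, 48.2, 60.7 and 82.5 CPM for Xbp1. These are values of single libraries and were chosen after they were seen.

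Of stress genes outside the members, Gdf15, a cytokine induced by ATF4 and CHOP, read 8.66, 2.08, 2.00 and 3.70 CPM in mononuclear phagocytes. Atf3, a stress and immediate early factor, read 810, 680, 743 and 937 CPM there, highest in the combination. Eif2ak2, the interferon-induced eIF2 alpha kinase PKR, read 55.2, 85.6, 97.5 and 96.4 CPM, lowest in ctrl. All were chosen after their values were seen. These levels are from all cells of the class and are not given without the ctrl-rich clusters. The part of those clusters in the ctrl levels was not tested.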
